A study of Rattus norvegicus with 16 samples.

Results

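The adrenergic and muscarinic receptors carry the sympathetic and vagal signals to the heart, and the receptor kinases switch active receptors off. The genes followed here are the α1-adrenergic receptors Adra1a, Adra1b and Adra1d, the β-adrenergic receptors Adrb1 and Adrb3, the M2 muscarinic receptor Chrm2, and the G protein-coupled receptor kinases Grk2 and Grk5. Their probe sets were taken by gene symbol in the platform annotation, whatever their values. The genes and lists themselves were chosen with earlier results of these data known. All 8 genes were found, each by 1 probe set, among 10411 genes named on the array. On an Affymetrix Rat 230A array, left ventricular RNA from male rats of the spontaneously hypertensive (SH) and Wistar Kyoto (WKY) strains was measured in 16 samples. There were 4 samples of each strain and exposure, named SH-air and SH-DE for one strain and WKY-air and WKY-DE for the other. WKY is the normotensive control of the hypertensive SH strain, and no group carried an engineered allele. Per the labels, rats of 12–14 weeks of age breathed air or diesel exhaust (DE) at 2.0 mg/m3, with the whole body exposed for 6 h on 5 days a week over 4 weeks, and the study's methods give other daily hours. The methods describe the tissue as pieces of left ventricle with septum, and the arrays of a group as biological replicates.

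In the heart, α1 receptors couple through Gq to phospholipase C, and β1 receptors couple through Gs to adenylyl cyclase, whose product cyclic AMP activates protein kinase A and raises the rate and force of contraction. The M2 receptor answers acetylcholine from the vagus, restrains adenylyl cyclase through Gi and Go, and opens an inward-rectifying potassium channel in atrial and pacemaker cells. Grk2 and Grk5 phosphorylate receptors that hold an agonist, after which arrestins bind and the receptor is uncoupled and taken up.

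The unit is the MAS5 signal, a linear intensity that the authors scaled to a trimmed mean of 500 on each array. Differences are between group means of log2 values, taken after 16.1, the 10th percentile of all values, was added to each signal. The added value damps the differences of dim probe sets. A difference can therefore depart from the ratio of the printed mean signals, even in sign. A difference passed the test at a limma adjusted p under 0.05 if its unadjusted p was also under 0.01, over 15866 probe sets. The array medians were 209 to 216 in WKY-DE and 173 to 197 in the other groups, and the median difference of all probe sets was 0.10 between WKY-DE and WKY-air, 0.01 after quantile normalization and −0.05 after the arrays were scaled to the same median. The ventricular light chain Myl2 was 27750 to 60900 over the 16 arrays, while the ventricular transcription factor Irx4 was dim, at 39.9 to 90.9 in WKY-air, and lower in WKY-DE, at 6.80 to 15.7 (limma adjusted p = 0.0291). The atrial light chain Myl7 was 4415 to 25950 with air and 404 to 9630 with DE in WKY rats, and 33.4 to 153.9 with air and 94.2 to 7876 with DE in SH rats. Of the atrial markers, 3 of 6 on the array passed the test as lower in SH-air than in WKY-air, where 1.79% of all probe sets did. The summed atrial signal was 32350 to 94640 with air and 11950 to 42180 with DE in WKY rats. In SH rats it was 12210 to 23900 with air and 13130 to 33690 with DE. Most of the sum in SH-air was Nppa, at 11630 to 23100, so the sum hides how low Myl7 was there. Kcna5 of the same list was higher on average in SH-air (144) than in WKY-air (96.0). Of the fibroblast markers 3 of 5 passed the test as lower in SH-air than in WKY-air. The summed signal of the 5 was 10090 to 12950 in SH-air, 16100 to 20340 in WKY-air, 12790 to 17370 in WKY-DE and 12920 to 13250 in SH-DE. In bulk tissue, fewer cells of a type and less RNA per cell cannot be told apart.

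None of the receptors or receptor kinases passed the test in any comparison. Over 8 genes and 6 comparisons (the strains in air, the strains under DE, DE in each strain, SH-DE set against WKY-air, and the interaction of strain and exposure), limma called 0 of 48 differences, and 8 had an unadjusted p under 0.05. Of these 8, 2 were between the strains in air (where 17.5% of all probe sets had such a p), 2 between the strains under DE (13.3%), 1 for DE in WKY (20.5%), 0 for DE in SH rats (6.16%), 1 between SH-DE and WKY-air (17.2%) and 2 in the interaction (12.5%). Of all probe sets, 3.15% were called between SH-air and WKY-air, 0.813% between SH-DE and WKY-DE, 1.88% between WKY-DE and WKY-air, 0% between SH-DE and SH-air, 1.94% between SH-DE and WKY-air and 0.0063% in the interaction. The lowest adjusted p among the 48 was 0.118. The 8 lowest p belonged to Adra1d, Adrb1 and Adrb3. The comparisons with WKY-air share its 4 arrays, so a deviating WKY-air array enters SH-air, WKY-DE and SH-DE differences together, whereas the strain difference in air and that under DE have no array in common.

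**Figure D1:**
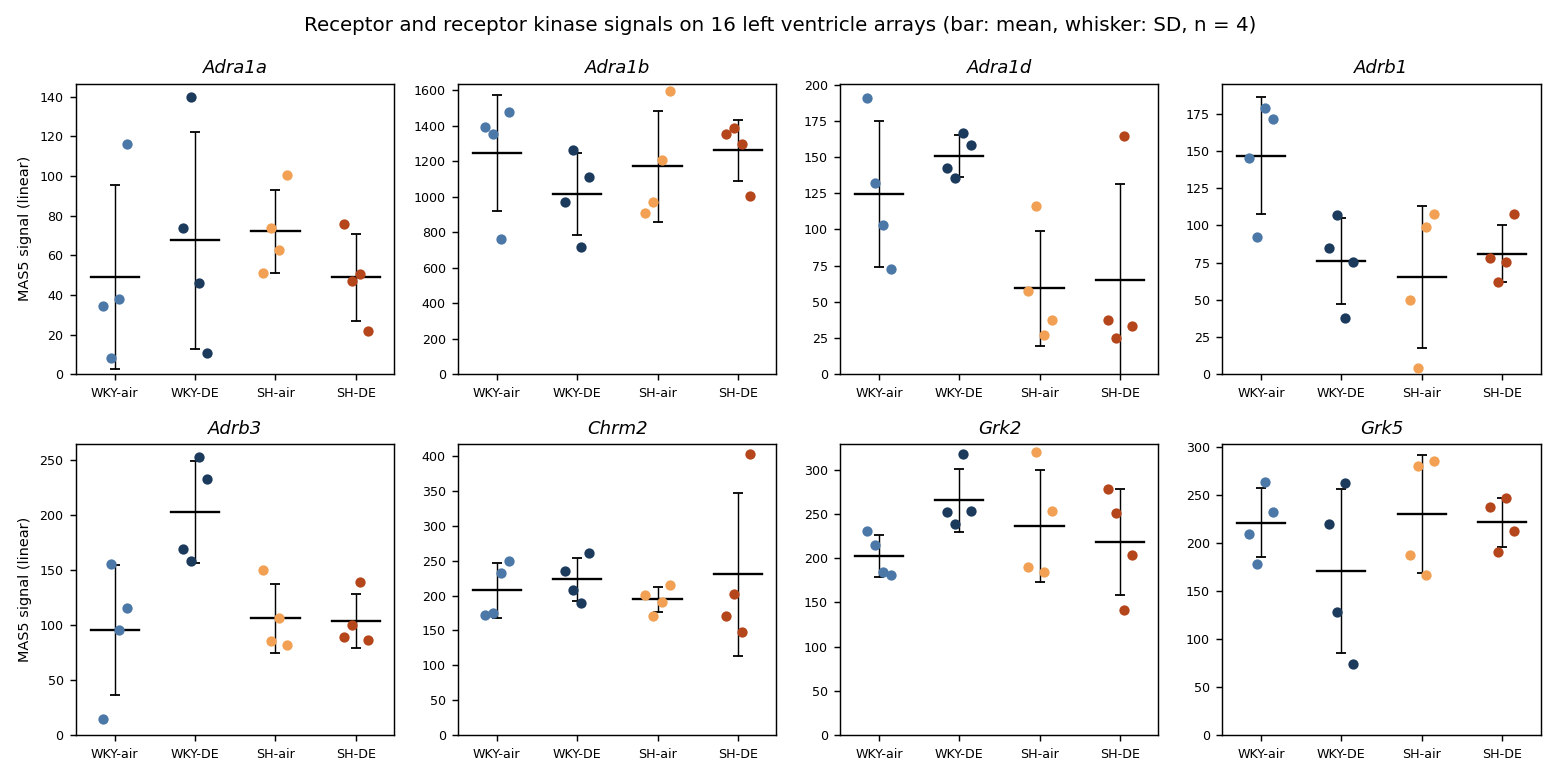
MAS5 signal (linear axis from 0) of each receptor and receptor kinase on the 4 arrays of each group, with points for arrays, bars for means and whiskers for SD. Adra1d was low in 3 of 4 SH-DE arrays and at 165 in the other, Adrb1 was highest on average in WKY-air, and Adrb3 was highest on average in WKY-DE.

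Among the α1 receptors, Adra1b, a subtype found in cardiac myocytes, had no difference between groups beyond its spread. Its signals were 1394, 1351, 759 and 1476 with air and 969.6, 1265, 718 and 1110 with DE in WKY rats, and 909, 969, 1209 and 1593 with air and 1354, 1386, 1296 and 1006 with DE in SH rats. The 4 groups overlapped, and 1 array in each WKY group, replicate 3, lay below the others of its group. In order of their means SH-DE (1260 ± 174, SD, n = 4) was followed by WKY-air (1245 ± 328), SH-air (1170 ± 310.0) and WKY-DE (1016 ± 232), and no neighbours in this order differed beyond their spread. The strain difference was −0.08 in air (95% interval −0.58 to 0.43) and 0.33 under DE (−0.18 to 0.83). The DE difference was −0.27 in WKY (−0.78 to 0.23) and 0.13 in SH rats (−0.38 to 0.64). All 5 pairwise intervals of Adra1b lay within a 2-fold change in either direction.

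Adra1d, the α1D receptor of vascular smooth muscle and heart, had the lowest p of the α1 receptors and was lower on average in both SH groups. Its signals were 191, 132, 103 and 72.5 in WKY-air, and 142, 136, 167 and 158 in WKY-DE. In SH rats they were 57.3, 116, 27.1 and 37.1 with air, and 37.6, 24.7, 165 and 33.5 with DE. All WKY-DE arrays lay close together, and 3 of 4 SH-DE arrays lay below every WKY array, but SH-DE replicate 3 was as high as the WKY-DE arrays. In air the strains overlapped through SH-air replicate 2, at 116, which lay above the 2 lowest WKY-air arrays. The mean signal was 125 ± 50.5 (SD, n = 4) with air and 151 ± 14.3 with DE in WKY rats, and 59.4 ± 39.8 with air and 65.1 ± 66.5 with DE in SH rats.

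The strain difference of Adra1d was −1.32 under DE (SE 0.43, 95% interval −2.23 to −0.41, limma adjusted p = 0.184). In air it was −0.97 (interval −1.88 to −0.05, limma adjusted p = 0.255), and between SH-DE and WKY-air it was −1.01 (interval −1.92 to −0.10, limma adjusted p = 0.237). None of these passed the test. Without SH-DE replicate 3 the difference passed it between SH-DE and WKY-DE (−1.80, limma adjusted p = 0.0154) and between SH-DE and WKY-air (−1.49, limma adjusted p = 0.0308). Across 27 alternatives the SH-DE to WKY-DE difference kept its negative sign in all of them, with an adjusted p from 0.0154 to 0.403. Some of these cannot change the value itself, as they alter only the spread or the threshold or leave out an array of another group. The others ranged from −1.80 to −0.86. The DE difference of Adra1d was 0.31 in WKY (interval −0.60 to 1.22) and −0.05 in SH rats (interval −0.96 to 0.87), neither beyond the spread.

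The arrays with the highest Adra1d in SH-DE and WKY-DE, replicate 3 of each, also had the highest Myl7 of their group (7876 and 9630). With WKY-DE replicate 3 and SH-DE replicate 3 both left out, an alternative chosen after seeing the data, the Adra1d difference was −1.76 between SH-DE and WKY-DE (limma adjusted p = 0.0454) and −1.49 between SH-DE and WKY-air (limma adjusted p = 0.0401). With the mean log2 signal of Myl7, Myl4 and Sln as a covariate it was −1.10 between SH-DE and WKY-DE (limma adjusted p = 0.235). In air the same covariate turned the difference between the strains from −0.97 to 0.28 (limma adjusted p = 0.974). The atrial signals of SH-air and WKY-air did not overlap, so strain and atrial signal cannot be told apart in that comparison.

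Adra1a, the α1A receptor, was dim. Its signals were 34.3, 7.999, 38.0 and 116 with air and 73.9, 139.8, 45.8 and 10.8 with DE in WKY rats, and 51.1, 73.8, 62.8 and 100.5 with air and 75.8, 46.9, 50.8 and 21.7 with DE in SH rats. In both WKY groups the highest array exceeded the lowest over 10-fold, and all 4 groups overlapped. Of the 16 arrays, 9 lay below 62.5 (the 25th percentile over all arrays) and 2 below the offset. The group means were 72.1 ± 21.1 (SD, n = 4) in SH-air, 67.6 ± 54.6 in WKY-DE, 49.1 ± 46.6 in WKY-air and 48.8 ± 22.1 in SH-DE, an order in which no neighbours were separated. The strain difference in air was 0.67 (95% interval −0.43 to 1.77), and none of the 5 pairwise intervals lay within a 2-fold change, so these arrays could not show whether Adra1a differed 2-fold between groups.

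Of the β receptors, Adrb1, the β1 receptor through which catecholamines drive rate and force, was highest on average in WKY-air. Its signals were 145, 92.3, 179 and 171 in WKY-air and 84.9, 107, 37.7 and 75.4 in WKY-DE. They were 49.9, 4.17, 99.2 and 107 in SH-air, and 78.4, 62.3, 75.8 and 108 in SH-DE. In each of the other 3 groups, 1 to 2 arrays reached above the lowest WKY-air array, so the groups overlapped. The means were 147 ± 39.3 (SD, n = 4) in WKY-air, 81.0 ± 19.1 in SH-DE, 76.2 ± 28.9 in WKY-DE and 65.2 ± 47.9 in SH-air. The last 3 did not differ beyond their spread.

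In air Adrb1 was 2.41-fold lower in SH rats by the fitted means, a log2 difference of −1.27 (SE 0.45, 95% interval −2.23 to −0.30, limma adjusted p = 0.157), which did not pass the test. The size depended on SH-air replicate 2, the array at 4.17, without which the difference was −0.70 (limma adjusted p = 0.302). It also moved with the offset, from −1.80 at an offset of 1 to −0.79 at the 25th percentile, and it was −2.09 with the atrial covariate (limma adjusted p = 0.667). It was negative in all 27 alternatives and passed the test in 0 of them, with 27 at an unadjusted p under 0.05. Alternatives that alter only the spread or the threshold, or leave out an array of another group, keep its value by construction. The DE difference was −0.85 in WKY (interval −1.81 to 0.12, limma adjusted p = 0.306) and 0.54 in SH rats (limma adjusted p = 0.897). The interaction, the difference between those 2 effects, was 1.38 (interval 0.02 to 2.75, limma adjusted p = 0.395) and did not pass the test. After the arrays were scaled to the same median, all 4 WKY-DE arrays lay below all WKY-air arrays, at 34.7 to 99.4 against 101 to 181. The same held after quantile normalization. On the deposited scale, where these groups overlapped for Adrb1, 4.27% of all probe sets were lower in WKY-DE without overlap. That share was not counted after either other scaling. Under DE the strains differed by 0.12 (interval −0.85 to 1.08).

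Adrb3, the β3 receptor, best known from fat and coupled in the heart to nitric oxide, had the lowest adjusted p of the 48. Its signals were 14.5, 155, 95 and 115 in WKY-air, and 169, 158, 252 and 232 in WKY-DE. In SH rats they were 149.7, 85.4, 107 and 81.2 with air, and 88.7, 99.8, 139 and 86.4 with DE. On the deposited scale all WKY-DE arrays lay above all others, the lowest of them, at 158, close to the highest WKY-air array, at 155, and after either other scaling WKY-DE and WKY-air overlapped. WKY-air replicate 1 lay far below the rest. The means were 203 ± 46.3 (SD, n = 4) in WKY-DE, 106 ± 31.4 in SH-air, 103.5 ± 24.5 in SH-DE and 95.1 ± 59.3 in WKY-air, and the last 3 did not differ beyond their spread.

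The DE difference of Adrb3 in WKY was 1.20 (SE 0.40, 95% interval 0.34 to 2.06, limma adjusted p = 0.118), beside the median of 0.10 over all probe sets, and it did not pass the test. Without WKY-air replicate 1 it was 0.66 (limma adjusted p = 0.161), and after quantile normalization 1.04 (limma adjusted p = 0.220). In SH rats it was −0.01 (interval −0.87 to 0.84). The interaction was −1.22 (interval −2.43 to −0.00, limma adjusted p = 0.40) and did not pass the test. The strain difference under DE was −0.87 (interval −1.73 to −0.01, limma adjusted p = 0.370), and all 4 SH-DE arrays lay below all WKY-DE arrays on the deposited scale and after both other scalings. Beside it, 5.71% of all probe sets were lower in SH-DE without overlap. The summed signal of the adipocyte markers was 3914 to 4717 with air and 4325 to 6188 with DE in WKY rats. For SH rats the sum was 4837 to 6117 with air and 5755 to 6467 with DE. Most of it was Fabp4, whose group means were 4114 to 5922. Plin1 was lower on average with DE, at 75.5 against 102 in WKY rats and 64.2 against 81.2 in SH rats. Lep and Ucp1 were higher on average with DE in WKY rats (16.2 against 11.95, and 78.2 against 43.4). In SH rats both were lower on average with DE (15.3 against 16.2, and 43.3 against 94.0). Lep lay below 62.5, the 25th percentile over all arrays, on every array, and Ucp1 did so on 3 of 4 WKY-air arrays. None of the 4 markers was called for DE in WKY rats or between the strains under DE. The part of fat cells in the Adrb3 values was not tested.

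**Figure D2:**
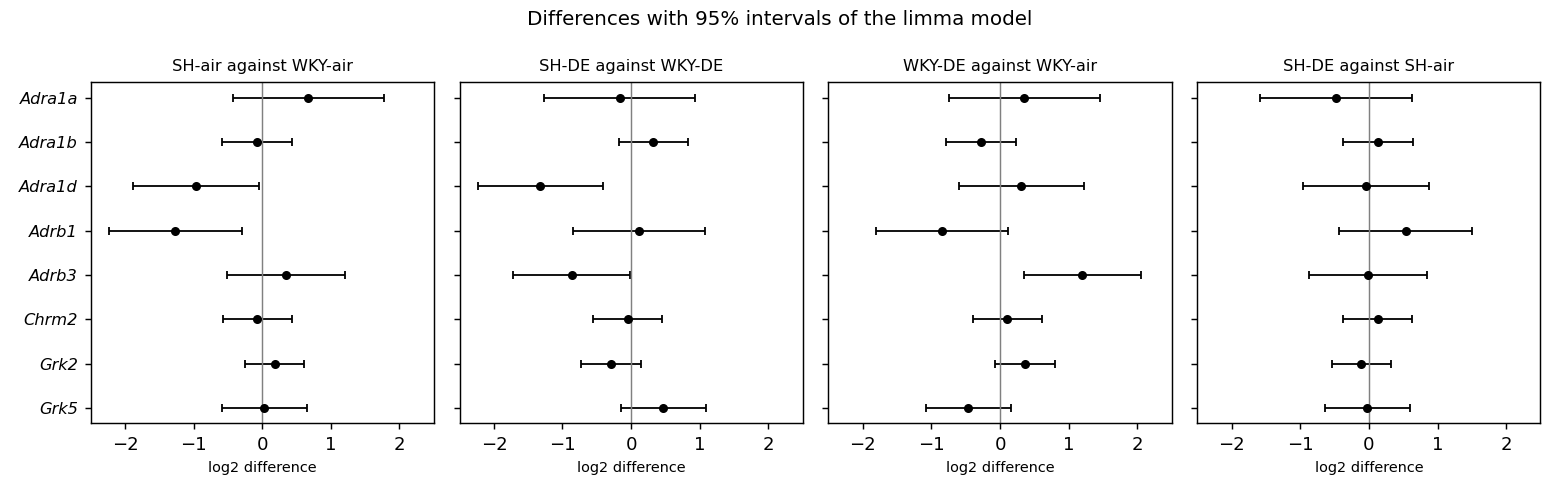
Log2 difference (x axis) of each receptor and receptor kinase in 4 comparisons, with 95% intervals of the limma model across 4 arrays per group. The intervals of Adra1b, Chrm2 and Grk2 are the narrowest, and those that do not reach 0 belong to Adra1d and Adrb1 between the strains in air, Adra1d and Adrb3 between the strains under DE, and Adrb3 for DE in WKY.

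Chrm2, the M2 receptor that is the main muscarinic receptor of the heart, had no difference between groups beyond its spread. Its signals were 173, 175, 232 and 250.2 with air and 235, 208, 189 and 260.5 with DE in WKY rats, and 201, 171, 191 and 215 with air and 170.0, 203, 148 and 403 with DE in SH rats. The groups overlapped, and SH-DE held both the lowest array and the highest, replicate 4. The means were 231 ± 117 (SD, n = 4) in SH-DE, 223 ± 31.1 in WKY-DE, 208 ± 39.5 in WKY-air and 194.5 ± 18.4 in SH-air, with no neighbours apart. The strain difference was −0.07 in air (95% interval −0.58 to 0.43) and −0.05 under DE (−0.55 to 0.45). The DE difference was 0.10 in WKY (−0.40 to 0.61), where it turned to −0.05 after either other scaling, and 0.13 in SH rats (−0.37 to 0.63). All 5 pairwise intervals lay within a 2-fold change, and the largest fold change inside any of them was 1.55.

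Grk2, the main receptor kinase of the heart and also named Adrbk1, gave signals of 230.5, 215, 185 and 181 in WKY-air and 252, 239, 318 and 254 in WKY-DE. In SH rats the signals were 189.7, 320.2, 184 and 253 with air, and 279, 251, 142 and 204 with DE. All WKY-DE arrays lay above all WKY-air arrays on the deposited scale but not after either other scaling, and both SH groups overlapped the WKY-air range. The means were 266 ± 35.6 (SD, n = 4) in WKY-DE, 237 ± 63.8 in SH-air, 219 ± 60.0 in SH-DE and 203 ± 23.8 in WKY-air. The arrays of neighbours in this order overlapped, and WKY-DE was not tested against SH-air. The DE difference in WKY was 0.36 (95% interval −0.07 to 0.80, limma adjusted p = 0.328), and it did not pass the test. It was 0.22 after quantile normalization and 0.20 after median scaling. On the deposited scale Adrb3 and Grk2 were the 2 of 8 genes that were higher in WKY-DE than in WKY-air without overlap, where 8.39% of all probe sets were.

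Grk5, a receptor kinase that also acts on histone deacetylases in the nucleus of myocytes, had signals of 209.5, 178, 264 and 232 in WKY-air and 219.6, 128, 262 and 73.5 in WKY-DE. They were 187, 279.8, 167 and 285 in SH-air, and 237, 189.9, 246 and 212 in SH-DE. WKY-DE replicates 2 and 4 were the lowest of all 16 arrays, while the other WKY-DE arrays lay in the range of the other groups. The means were 229.8 ± 61.6 (SD, n = 4) in SH-air, 221 ± 25.6 in SH-DE, 221 ± 36.1 in WKY-air and 171 ± 85.5 in WKY-DE, and no neighbours were apart. The DE difference in WKY was −0.46 (95% interval −1.08 to 0.16), and the strain difference under DE was 0.47 (−0.15 to 1.09). In air the strains differed by 0.03 (−0.59 to 0.65), and in SH rats DE and air differed by −0.02 (−0.64 to 0.60).

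**Figure D3:**
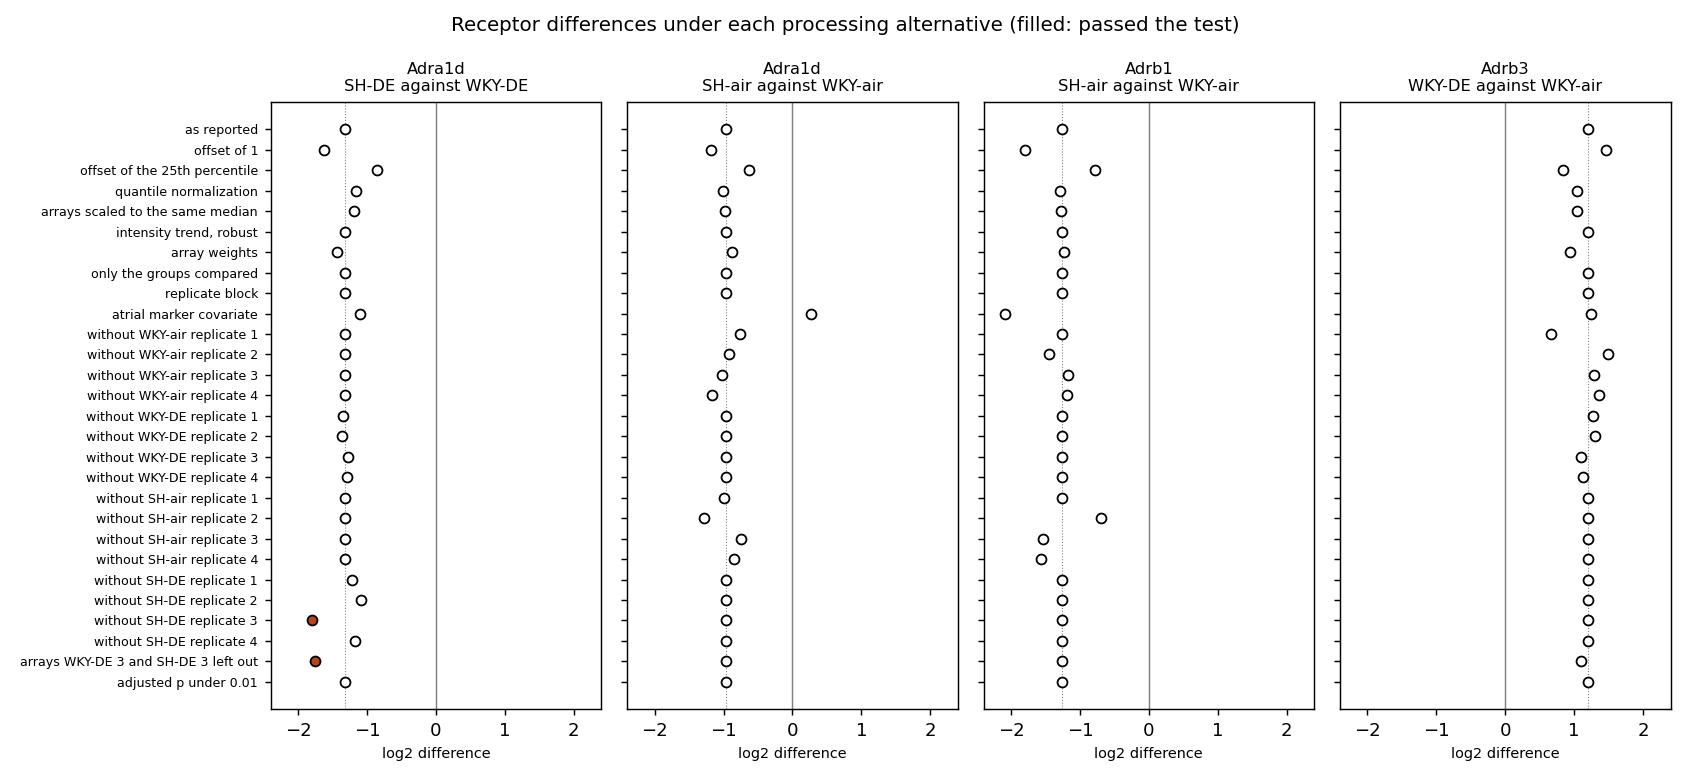
Log2 difference (x axis) of Adra1d, Adrb1 and Adrb3 as reported and under each processing alternative (y axis), with filled points where the test was passed and a dotted line at the reported value. Adra1d under DE passed without SH-DE replicate 3 and without both replicates 3, Adra1d in air changed sign with the atrial covariate, Adrb1 was smallest without SH-air replicate 2, and Adrb3 was smallest without WKY-air replicate 1.

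As a set, the 8 genes had a median log2 difference of −0.02 between SH-air and WKY-air, where all probe sets had 0.02, and of −0.11 between SH-DE and WKY-DE, where all had −0.09. For DE the medians were 0.21 in WKY, beside 0.10 over all probe sets, and −0.02 in SH rats, beside −0.00. The standard error of a difference ranged from 0.20 for Grk2 to 0.52 for Adra1a, with a median of 0.35 over the set against 0.21 over all probe sets.

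The genes whose log2 signals were most like those of the receptors and kinases over the 16 arrays were sought among 6835 probe sets above the median of the probe set means, for the 4 genes that were themselves above it. Adra1b was closest to Tma7 (Pearson r 0.876), Sap30l (0.788) and Cox8a (0.783), and Chrm2 to Gtf2b (0.847), Azin1 (0.795) and Prpf39 (0.754). Grk2 was closest to Zfp423 (0.860), Adprm (0.845) and Usp46 (0.804), and Grk5 to Rbm24 (0.778), Cflar (0.765) and Zfp598 (0.756). These values are the highest of many, and the arrays share their groups and scaling.

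Of 100 other genes of the adrenergic and muscarinic pathways, 89 were on the array. Between SH-air and WKY-air 5 of 89 were called (5.62%, against 3.15% of all probe sets), of which Chrm5 and Plce1 were higher and Gnao1, Akap12 and Arrb2 lower. Between WKY-DE and WKY-air 2 were called (2.25%, against 1.88%), Chrm5 higher and Adcy4 lower, and between SH-DE and WKY-air 3 (3.37%, against 1.94%), Chrm5 higher and Adcy4 and Rgs2 lower. With limma 0 were called between SH-DE and SH-air, between SH-DE and WKY-DE and in the interaction, where 9, 10 and 12 had an unadjusted p under 0.05. Each of these 7 genes was set against the same WKY-air arrays.

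The strain count of 5 was 1 without WKY-air replicate 1, 3 or 4, 2 without WKY-air replicate 2 or SH-air replicate 1, 2 or 3, and 3 without WKY-DE replicate 1 or SH-air replicate 4. The DE count of 2 was 0 without WKY-air replicate 1 or 4 or WKY-DE replicate 1 or 3, and 1 without WKY-air replicate 3, WKY-DE replicate 2 or 4, or SH-DE replicate 1 or 2. The count of 3 between SH-DE and WKY-air was 1 without WKY-air replicate 1 or 4 or SH-DE replicate 1, 2 or 4, and 5 without SH-DE replicate 3. With the atrial covariate the counts were 0, 0 and 1. The same covariate cut the calls over all probe sets from 499 to 9, from 298 to 8 and from 308 to 17.

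Among the other receptors, Chrm5, the M5 muscarinic receptor, was dim in WKY-air and higher in the other groups. Its signals were 28.5, 33.3, 26.4 and 22.9 with air and 84.1, 43.6, 101 and 113 with DE in WKY rats, and 117, 78.9, 82.0 and 37.7 with air and 128, 138, 126 and 93.6 with DE in SH rats. All WKY-air arrays lay below every other array and below 62.5, the 25th percentile over all arrays. A share of 8.39% of all probe sets was higher in WKY-DE than in WKY-air without overlap. This share was 5.66% between the strains in air, and 5.74% when SH-DE was set against WKY-air. Against WKY-air the log2 difference of Chrm5 was 1.05 in SH-air (SE 0.26, limma adjusted p = 0.0436), 1.16 in WKY-DE (SE 0.26, limma adjusted p = 0.0399) and 1.64 in SH-DE (SE 0.26, limma adjusted p = 0.00523). The SH-DE call held in all 11 processing alternatives and without each of the 16 arrays, at an adjusted p up to 0.0253 without an array. The WKY-DE call was lost in 7 of 11 alternatives, quantile normalization among them (limma adjusted p = 0.0955), and without any 1 of the WKY-air arrays, WKY-DE replicate 1, 3 or 4 or SH-DE replicate 1 or 2 (adjusted p up to 0.0985). The SH-air call was lost in 9 of 11 and without any 1 of the WKY-air arrays, WKY-DE replicate 1 or replicate 1, 2 or 3 of SH-air or SH-DE (adjusted p up to 0.118). The other members of this list, Adra2a, Adra2b, Adra2c, Chrm1, Chrm3 and Chrm4, passed the test in no comparison, and Adra2a, Adra2b, Chrm1 and Chrm4 had group means below 62.5 throughout.

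Of 14 G protein subunits on the array, Gnao1, the α subunit of Go to which the M2 receptor couples, was called. Its signals were 526, 291, 556 and 497 with air and 261, 329, 251 and 212 with DE in WKY rats, and 164, 284, 213 and 239.9 with air and 235, 218, 303 and 274 with DE in SH rats. In 3 of 4 WKY-air arrays it lay above all other arrays, and replicate 2 lay within their range. The strain difference in air was −0.99 (SE 0.21, limma adjusted p = 0.0214), and the DE difference in WKY was −0.77 (limma adjusted p = 0.0703), which did not pass the test. The strain call was lost without WKY-air replicate 1, 3 or 4 or SH-air replicate 1 (adjusted p up to 0.0624) and with the atrial covariate (−0.87, limma adjusted p = 0.735).

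Of 6 adenylyl cyclases, Adcy4, an isoform that G protein βγ subunits stimulate, was called. Its signals were 357, 208, 287 and 324 with air and 121, 141, 152 and 218 with DE in WKY rats, and 198, 211, 227 and 179 with air and 170.3, 168, 158 and 151 with DE in SH rats. WKY-DE replicate 4 lay above the lowest WKY-air array, and the SH-DE arrays lay below all WKY-air arrays. Of all probe sets, 4.73% were lower in SH-DE than in WKY-air without overlap. The DE difference in WKY was −0.84 (SE 0.17, limma adjusted p = 0.0333), and SH-DE differed from WKY-air by −0.78 (SE 0.17, limma adjusted p = 0.0359). The DE call was lost without WKY-air replicate 1 or 4 or WKY-DE replicate 1, 2 or 3 (adjusted p up to 0.0814), and the SH-DE call without WKY-air replicate 1, 3 or 4 or SH-DE replicate 1, 2 or 4 (up to 0.10).

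**Figure D4:**
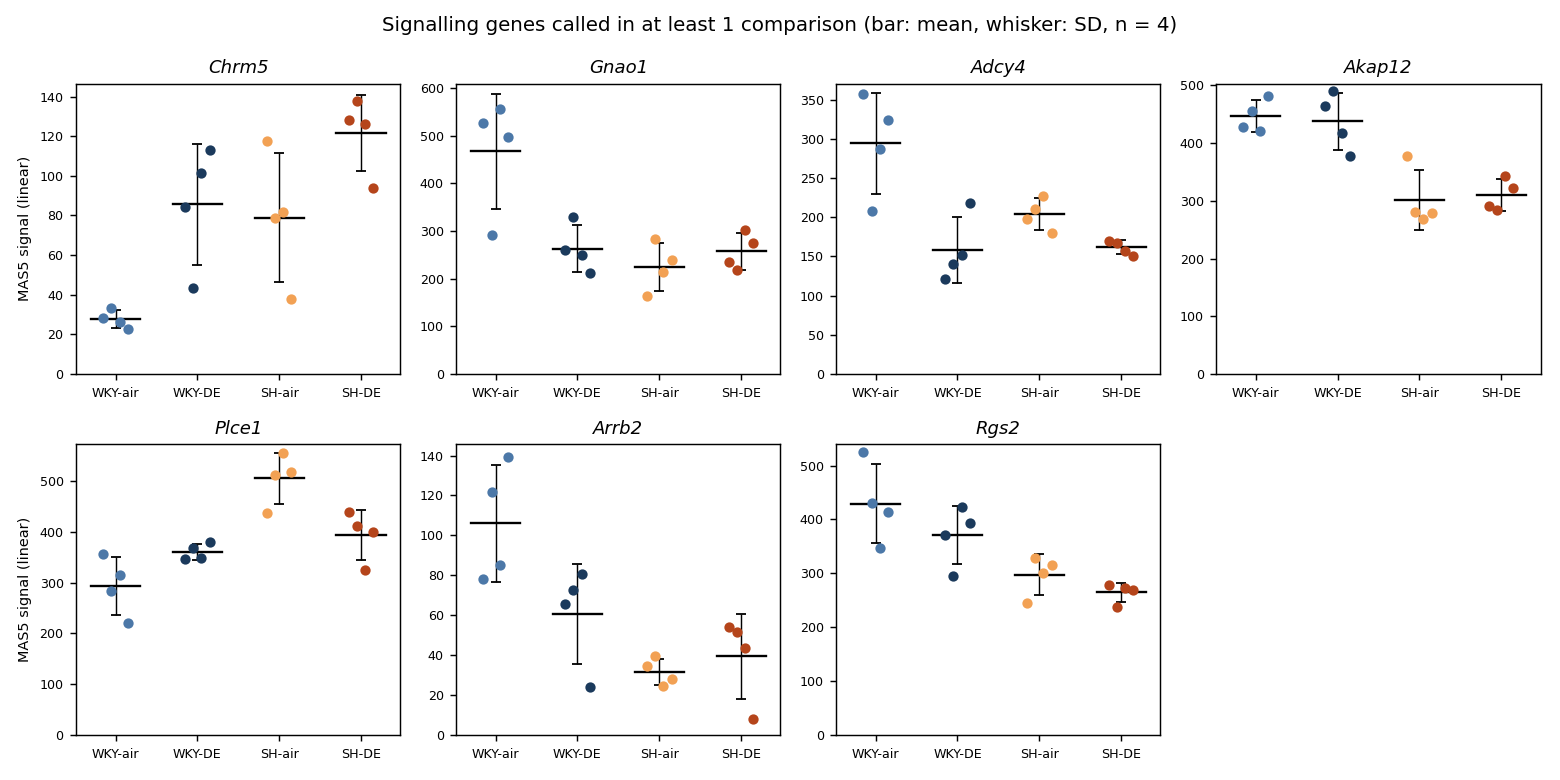
MAS5 signal (linear axis from 0) on the 4 arrays of each group for the 7 pathway genes called in at least 1 comparison, with points for arrays, bars for means and whiskers for SD. Chrm5 was lowest in WKY-air, Gnao1, Adcy4, Arrb2 and Rgs2 had their highest mean there, Akap12 was lower on average in both SH groups, and Plce1 was highest on average in SH-air.

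Among 15 genes of protein kinase A and its targets, Akap12, a scaffold that holds protein kinase A near the β receptors, was called. Its signals were 428, 455, 421 and 482 with air and 464, 491, 417 and 378 with DE in WKY rats, and 378, 280.3, 268 and 278 with air and 291, 284, 344 and 322 with DE in SH rats. All SH arrays lay below all WKY arrays, although SH-air replicate 1 nearly equalled the lowest WKY-DE array. Without overlap, 5.66% of all probe sets were lower in SH rats in air and 5.71% under DE. The strain difference of Akap12 was −0.56 in air (SE 0.13, limma adjusted p = 0.0300) and −0.47 under DE (limma adjusted p = 0.113), where it did not pass the test. The call in air was lost without any 1 of the WKY-air arrays and without SH-air replicate 2, 3 or 4 (adjusted p up to 0.0862).

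Of 10 genes of the phospholipase C and protein kinase C list, Plce1, phospholipase C epsilon, was called. Its signals were 357, 283, 316 and 221 with air and 346, 368, 348 and 380.3 with DE in WKY rats, and 437, 513, 556 and 518 with air and 440.2, 413, 326 and 400.2 with DE in SH rats. All SH-air arrays lay above all WKY arrays, and SH-DE replicate 1 just above the lowest SH-air array. The strain difference in air was 0.77 (SE 0.14, limma adjusted p = 0.0106), and it passed the test without each of the 16 arrays. With the atrial covariate it was 0.65 (limma adjusted p = 0.696). The interaction was −0.65 (limma adjusted p = 0.243) and did not pass the test.

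Among 11 arrestins, other receptor kinases and RGS proteins, Arrb2, β-arrestin 2, which binds phosphorylated receptors, and Rgs2, which speeds the shut-off of Gq, were called. Arrb2 had signals of 78.3, 121, 84.9 and 139 with air and 65.4, 72.4, 80.8 and 23.9 with DE in WKY rats, and 34.6, 39.3, 24.4 and 28.2 with air and 54.2, 51.4, 43.7 and 8.15 with DE in SH rats. The arrays of both SH groups lay below all WKY-air arrays and below 62.5, the 25th percentile over all arrays. The strain difference of Arrb2 in air was −1.33 (SE 0.33, limma adjusted p = 0.0436), and it was lost without any 1 of the WKY-air or SH-air arrays or WKY-DE replicate 1 or 2 (adjusted p up to 0.119). Rgs2 had signals of 525, 429.8, 347 and 414 with air and 371, 296, 422 and 394 with DE in WKY rats, and 244, 329, 301 and 316 with air and 278, 238, 273 and 269.7 with DE in SH rats. All SH arrays lay below all WKY-air arrays, and all SH-DE arrays below all WKY-DE arrays. Of all probe sets, 5.66% were lower in SH rats without overlap in air and 5.71% under DE. Between SH-DE and WKY-air this share was 4.73%. The difference of Rgs2 between SH-DE and WKY-air was −0.65 (SE 0.15, limma adjusted p = 0.0359), and in air that between the strains was −0.50 (limma adjusted p = 0.0801), which did not pass the test. The call was lost without WKY-air replicate 1, 2 or 4, WKY-DE replicate 1 or SH-DE replicate 1, 2 or 4 (adjusted p up to 0.109).

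The remaining lists held no call in any comparison. Among 8 cyclic AMP phosphodiesterases the lowest p belonged to Pde7a for DE in WKY (0.62, limma adjusted p = 0.195) and to Pde4b between the strains in air, where the means were 534 ± 63.6 (SD, n = 4) in WKY-air and 438 ± 83.1 in SH-air. Of 4 channel genes, Kcnj3, a subunit of the channel that the M2 receptor opens, was 288 ± 93.2 (SD, n = 4) with air and 504 ± 216 with DE in WKY rats, and 541 ± 233 with air and 400.1 ± 61.7 with DE in SH rats, with a strain difference in air of 0.83 (limma adjusted p = 0.170). The pacemaker channel gene Hcn2 was 589 ± 152 in WKY-air and 981 ± 501 in WKY-DE.

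Among 10 genes of catecholamine synthesis, uptake and breakdown, Slc18a2, the vesicular monoamine transporter, was 115 ± 25.3 (SD, n = 4) in WKY-air and 194 ± 33.6 in WKY-DE without overlap (0.69, limma adjusted p = 0.0628). Of all probe sets, 8.39% were higher in WKY-DE in this way. Maob, a monoamine oxidase, was 313 ± 33.7 in WKY-air and 218 ± 17.4 in SH-air without overlap (−0.49, limma adjusted p = 0.0911), where 5.66% of all probe sets were lower without overlap. Among 4 genes of acetylcholine handling, Chat, choline acetyltransferase, was 39.6 ± 27.7 in WKY-air and 76.6 ± 15.5 in WKY-DE (0.85, limma adjusted p = 0.203), and Bche, butyrylcholinesterase, was 177 ± 47.0 and 255 ± 37.0. None of the 6 autonomic neuron markers on the array passed the test, and their summed signal was 242 to 423 with air and 374 to 641 with DE in WKY rats, and 426 to 551 with air and 370.1 to 517 with DE in SH rats.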

How the data were processed

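Total RNA of left ventricle was hybridized to Affymetrix Rat 230A arrays. The deposited MAS5 signal is a linear intensity, and the authors brought every array to a trimmed mean of 500 (2% trimmed from either end). MAS5 is named in the submitters' processing notes without a version, and the study's own gene lists came from RMA values not used here. Without 57 controls, 15866 of 15923 probe sets were analysed as log2 of signal plus 16.1 in 1 limma 3.58.1 model of 4 group means (R 4.3.3), with Benjamini-Hochberg adjustment over all of them, without filter or further normalization. The precision is limited by the number of arrays. Gene names came from the platform annotation (12783 with 1 gene, 312 with several, 2771 not listed), with 12748 symbols updated. A pathway gene with several probe sets was represented by the one of highest mean.

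Every gene of the set was named, with every pathway gene called in any comparison, otherwise up to 2 per list of lowest p in SH-air or WKY-DE against WKY-air, and the 3 genes most like each bright member. The genes and lists were chosen with earlier results of these data known. The model was tested on simulated data. Alternatives were other offsets, quantile and median scaling, leaving out the dimmest 40%, an intensity trend, array weights, only the groups compared, a replicate block, an atrial covariate, an adjusted p under 0.01 and leaving out each array. Adra1a, Adra1d, Adrb1, Adrb3, Chrm5 and Arrb2 were themselves among the dimmest 40%, so the alternative without these does not hold them.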

Additional observations from a re-analysis of the deposited data

Results flagged for a closer look

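Adra1d was 165 in SH-DE replicate 3, while the other 3 SH-DE arrays lay between 24.7 and 37.6, so that 1 array stood far from the rest of its group. Akap12 was 378 in SH-air replicate 1, where the other 3 arrays lay between 268 and 280.3. These were 2 of 60 groups of 4 arrays looked at over 15 genes, and chance alone singles out about 1 in 20 such groups. The reason for either value was not tested.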

How the results depend on the processing

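With 4 arrays per group, the 95% intervals of Adra1a, Adra1d, Adrb1 and Adrb3 reached fold changes of 3.41 to 4.71, and dim signals moved with the offset. Over 1312 alternative values of the 48 differences, 68 changed the sign of an uncalled one, and 4 passed the test, all of Adra1d. As 0 of the 48 were called as reported, there was no called value to reverse. Many alternatives alter only the spread or the threshold, or leave out an array of another group, and keep the value by construction. The count of receptors and kinases called was 0 to 1 when 1 array was left out, both between SH-DE and WKY-DE and between SH-DE and WKY-air, and 1 in each with WKY-DE replicate 3 and SH-DE replicate 3 left out (added after seeing the data). Their other counts were 0 under every alternative. Of pathway genes, 5 were called between SH-air and WKY-air, and the count was 1 to 6 when 1 array was left out, 1 with only the groups compared, and 0 with the atrial covariate or at an adjusted p under 0.01. Between WKY-DE and WKY-air it was 2, and 0 to 2 when 1 array was left out, 1 after quantile normalization, 4 without the dimmest 40% and with the intensity trend, and 0 with only the groups compared, the atrial covariate, both replicates 3 left out or an adjusted p under 0.01. Between SH-DE and WKY-air it was 3, and 1 to 5 when 1 array was left out, 6 at the 25th percentile offset, 7 with the intensity trend, and 1 with only the groups compared, the atrial covariate or an adjusted p under 0.01. Between SH-DE and WKY-DE it was 0, and 1 with array weights. Same-numbered replicates did not deviate together (r from −0.096 to 0.053 over 24 pairs), and in the fit with a replicate block the pathway counts were 1, 0 and 1 in SH-air, WKY-DE and SH-DE against WKY-air, and those of the receptors and kinases stayed 0. With the atrial covariate the calls over all probe sets fell as well, to 9, 8 and 17 in these 3 comparisons with WKY-air. Unless stated, the cause of a changed count was not tested.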
